A study of Homo sapiens with 18 samples.

Results

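The MAP kinase phosphatases are the dual-specificity phosphatases (DUSPs) that switch off MAP kinases, and their transcripts were followed here in a gastrointestinal stromal tumor line under imatinib and JQ1. The 10 genes DUSP1, DUSP2, DUSP4, DUSP5, DUSP6, DUSP7, DUSP8, DUSP9, DUSP10 and DUSP16 were taken by name from a table of 23621 genes, and all 10 were found. All 10 also passed the filter for testing, at least 1 FPKM (a level scaled for transcript length and sequencing depth) in at least 3 libraries, along with 12771 genes in all. GIST-T1 is a human tumor line that depends on the receptor tyrosine kinase KIT, and every library came from that line. Cells received imatinib, an inhibitor of KIT and related kinases, for 6 h or 24 h, or JQ1, which displaces BET bromodomain proteins from acetylated chromatin, for 6 h or 24 h. The last treatment was imatinib plus JQ1 for 24 h, and the controls received DMSO for a time that the labels do not state. Each drug was given at 500 nM. Each of the 6 groups had 3 libraries. Whether these were separate cultures is not stated, so a p-value here reflects only how far libraries of this 1 cell line vary, possibly for technical reasons.

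A MAP kinase is active when a kinase above it has phosphorylated a threonine and a tyrosine in its activation loop, and a MAP kinase phosphatase removes both phosphates. Several of these phosphatase genes are themselves induced by the pathway they restrain, so they form a negative feedback loop, and DUSP6 is widely used as a readout of ERK activity. DUSP5, DUSP6, DUSP7 and DUSP9 act mainly on ERK. DUSP8, DUSP10 and DUSP16 act mainly on the stress kinases JNK and p38. DUSP1, DUSP2 and DUSP4 are nuclear, inducible enzymes that act on several MAP kinases. In KIT-driven tumor cells, ERK is among the pathways downstream of the receptor.

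Total FPKM per library was below every DMSO library in each treated group, so the scale affects every value that follows. The mean total was 1.72-fold below DMSO after imatinib for 6 h, 4.6-fold after imatinib for 24 h, 1.77-fold after JQ1 for 6 h, 3.52-fold after JQ1 for 24 h and 5.8-fold after the combination. ERCC spike-in RNAs, added in relation to cell count, were level across libraries in the deposited table, with median deviations between -0.02 and 0.04 log2. Each log2 change of FPKM + 1 is therefore given on the deposited scale, and beside it, where it alters the reading, after ratio rescaling, which divides a library by the median ratio of its genes to the mean library. Ratio rescaling sets the median gene near 0, whereas on the deposited scale the median gene of the 5 treated groups lay between -0.69 and -2.05. In bulk RNA, fewer cells of a kind and less RNA per cell cannot be told apart. All 10 GIST markers passed the filter. Of markers of other cells, 3 of 5 epithelial genes passed, with summed levels of 416 to 663 FPKM in DMSO (mostly KRT18, while CDH1 averaged 0.219), as did 1 of 4 smooth muscle genes (ACTA2, with sums of 124 to 192 FPKM). Of 4 leukocyte genes 1 passed, with sums of 2.73 to 3.65 FPKM in DMSO, while PTPRC averaged 0.107 FPKM. None of 4 endothelial and 4 neural genes passed. The epithelial and smooth muscle sums were lower in every treated library than in DMSO, and their part in the results was not tested. The lowest value in a library lay between 0.0383 and 0.108 FPKM, and the depth in reads is unknown.

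Imatinib lowered DUSP6, DUSP5 and DUSP4 at both times, on the deposited scale and after ratio rescaling. With JQ1, DUSP6 and DUSP5 did not pass the test at 6 h and fell on the deposited scale at 24 h, when DUSP9 was lower under JQ1 than under imatinib. DUSP16 and DUSP10 act on stress kinases. On the deposited scale, their log2 changes in the groups with imatinib lay above those of 68% to 88.8% of tested genes. DUSP10 was also above 96.7% of tested genes after JQ1 for 6 h. The level of DUSP10 is low, at 3.38 FPKM in DMSO and 1.02 FPKM after imatinib for 24 h. The added 1 FPKM shrinks its change and so can raise its rank. DUSP8, the third of that class, lay above 49.9% to 74.9% with imatinib, but its level is low and the added 1 FPKM shrinks its change. Its mean after imatinib for 24 h was 7.12-fold below DMSO, against 4.6-fold for total FPKM. After ratio rescaling, imatinib for 24 h gave 0.66 for DUSP16, 0.01 for DUSP10 and -0.46 for DUSP8, and none passed the test. The median of all tested genes was 0.01 there, the same as DUSP10. The class took a larger share of the family's RNA with imatinib, and after JQ1 for 24 h (32%), than in DMSO (8.5%). A share is relative, and DUSP6 alone took 71.8% of the sum in DMSO. Mean FPKM of DUSP16, DUSP10 and DUSP8 was below DMSO in each of these groups. A gene is said to have risen or fallen only where the limma test gave an adjusted p below 0.05, over all tested genes, and the log2 change was at least 1 in size. On the deposited scale 6 of the 10 members fell after imatinib for 6 h, where 20% of all tested genes fell. After imatinib for 24 h it was 9 members, against 72.1% of tested genes. JQ1 for 6 h lowered 5 members, against 49.8% of tested genes, and JQ1 for 24 h lowered 9, against 75.3%. The combination lowered 9 members, against 86% of tested genes. The largest adjusted p among these calls was 2.23e-06. No member rose in these 5 comparisons, and none was higher at an unadjusted p below 0.05 either. Counts after JQ1 for 6 h and in the groups at 24 h were thus near the share of all genes.

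After ratio rescaling fewer members passed. DUSP4, DUSP5 and DUSP6 fell after imatinib for 6 h, where 2.08% of tested genes fell, and the same 3 fell after imatinib for 24 h, against 8.72%. Only DUSP2 fell after JQ1 for 6 h, against 2.57% of tested genes, and DUSP6 and DUSP9 fell after JQ1 for 24 h, against 6.47%. DUSP4, DUSP5, DUSP6 and DUSP9 fell after the combination, against 10.1%. Rescaling each library to 1 total FPKM instead gave DUSP16 a rise of 1.10 log2 after imatinib for 24 h and of 1.01 after the combination, where 20% and 12% of tested genes were higher, and left DUSP4 at -0.96 after imatinib for 24 h, short of the threshold.

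**Figure D1:**
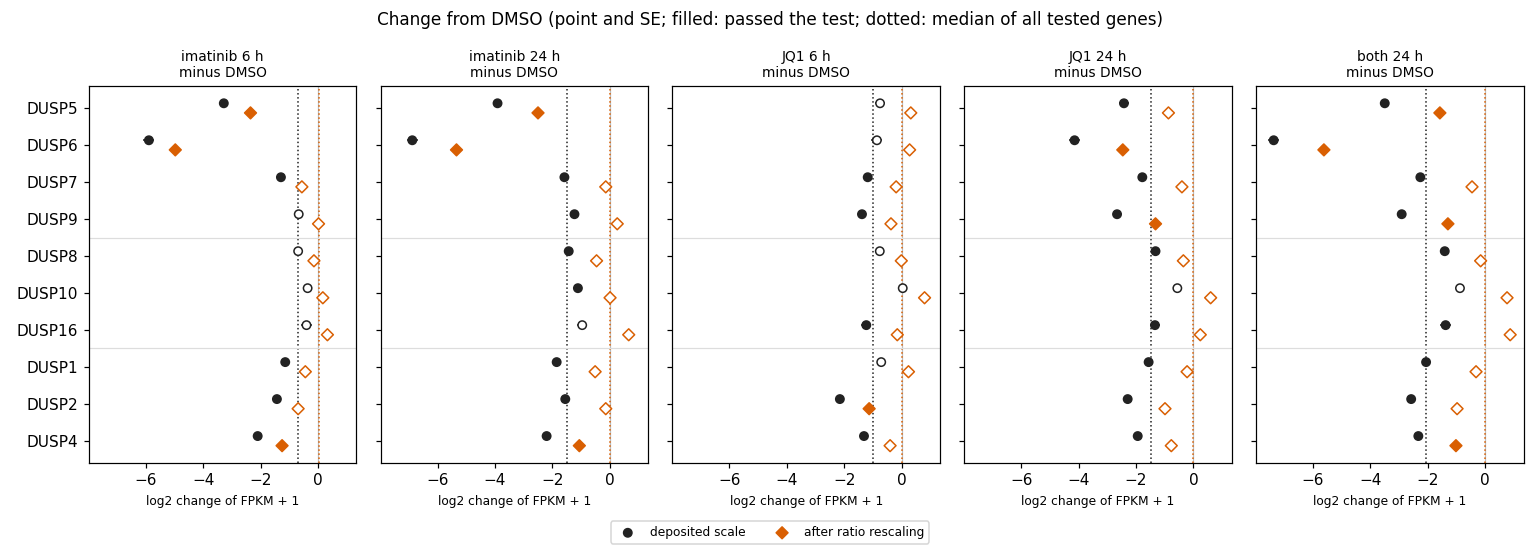
Change of each MAP kinase phosphatase from DMSO as log2 of FPKM + 1, with imatinib 6 h, imatinib 24 h, JQ1 6 h, JQ1 24 h and the combination in separate panels; points are limma estimates, bars are SE, filled points passed the test, and dotted lines mark the median of all tested genes. DUSP6 lies far left of the median in 4 panels, and at -0.86 close to it after JQ1 for 6 h.

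DUSP6, the cytoplasmic ERK phosphatase, was the most abundant member in DMSO and carried the widest change. It had 3.01, 2.22 and 3.96 FPKM after imatinib for 6 h and 1.01, 1.0 and 1.05 FPKM after imatinib for 24 h. After JQ1 it had 127, 120 and 144 FPKM at 6 h, and 9.96, 13.3 and 14.7 FPKM at 24 h. The combination left 0.417, 0.416 and 0.471 FPKM, against 181, 238 and 306 FPKM in DMSO. No library of any group overlapped with the next group in that order of levels, which ran from DMSO down through JQ1 6 h, JQ1 24 h, imatinib 6 h and imatinib 24 h to the combination. Of tested genes, 91.4% were lower without overlap after JQ1 for 6 h than in DMSO. It was 64.8% from JQ1 6 h to JQ1 24 h, 84.5% from imatinib 6 h to 24 h and 59.7% from there to the combination. Group means were 78.9-fold below DMSO after imatinib for 6 h, 237-fold after imatinib for 24 h, 19.1-fold after JQ1 for 24 h and 556-fold after the combination. In log2 change, 0.0626% of tested genes were below DUSP6 after imatinib for 6 h, and 0.0392% were after imatinib for 24 h and after the combination. The log2 change after imatinib for 24 h was -6.88 (SE 0.19, adjusted p = 7.23e-18), and it was -5.34 after ratio rescaling. JQ1 for 6 h gave -0.86, which did not pass the size threshold and which 63.2% of tested genes were below; the value was 0.28 after ratio rescaling and -0.04 after rescaling to 1 total. Without DMSO replicate 1 the deposited value was -1.05, past the threshold.

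The promoter windows of DUSP6, DUSP16 and DUSP1 are shown because these genes stand for the widest fall, the largest share left under imatinib, and the inducible nuclear enzymes. They are RefSeq windows of 300 bases on GRCh38.p14, from 250 before to 50 after the gene's start, on the gene's strand; the expression values were made on hg19, so no coordinate is carried between them. Windows were found for 8 of the 10 members, and for DUSP4 and DUSP5 none is printed. The DUSP6 window is chr12:89352452-89352751 on the minus strand, DUSP16 is chr12:12562814-12563113 on the minus strand, and DUSP1 is chr5:172771146-172771445 on the minus strand. Capitals mark matches, on either strand, to the ETS core GGAA, the cAMP response element half-site TGACGT, the AP-1 site TGANTCA or the E box CACGTG.
DUSP6: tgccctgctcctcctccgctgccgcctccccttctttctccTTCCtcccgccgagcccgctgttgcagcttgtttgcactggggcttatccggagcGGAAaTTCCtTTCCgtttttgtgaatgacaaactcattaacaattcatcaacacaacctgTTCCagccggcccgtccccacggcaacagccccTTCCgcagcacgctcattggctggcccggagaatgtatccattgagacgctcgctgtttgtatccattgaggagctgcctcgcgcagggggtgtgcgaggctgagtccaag
DUSP16: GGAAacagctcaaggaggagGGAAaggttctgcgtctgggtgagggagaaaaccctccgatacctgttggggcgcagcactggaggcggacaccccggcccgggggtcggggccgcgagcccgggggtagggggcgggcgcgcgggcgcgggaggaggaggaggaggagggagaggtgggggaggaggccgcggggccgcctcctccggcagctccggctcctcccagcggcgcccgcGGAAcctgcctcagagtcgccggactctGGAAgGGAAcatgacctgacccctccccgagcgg
DUSP1: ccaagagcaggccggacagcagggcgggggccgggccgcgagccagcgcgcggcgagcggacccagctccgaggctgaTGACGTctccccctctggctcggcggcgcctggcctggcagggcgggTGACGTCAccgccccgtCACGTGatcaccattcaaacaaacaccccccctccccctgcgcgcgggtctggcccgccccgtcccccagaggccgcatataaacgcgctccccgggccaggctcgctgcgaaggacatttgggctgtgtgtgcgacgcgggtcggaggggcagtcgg
The DUSP6 window held 6 matches to GGAA and the DUSP16 window 5, and 95.5% of 35116 promoter windows held at least 1. The DUSP1 window held no GGAA and 3 matches to TGACGT, of which 2 overlap in the palindrome TGACGTCA, and it held 1 E box. TGACGT was in 7.98% of windows and also in that of DUSP8, with 4 matches. The E box was in 7.26% of windows and also in that of DUSP2, with 1 match. TGANTCA, in 7.71% of windows, matched in none of the members' windows. These matches are letters in a window and say nothing of which factor was bound.

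DUSP5, the nuclear ERK phosphatase, had lower levels than DUSP6 and its lowest values after imatinib for 24 h. It had 1.63, 1.12 and 1.96 FPKM after imatinib for 6 h and 0.666, 0.593 and 0.656 FPKM after imatinib for 24 h. JQ1 gave 14.2, 11.9 and 14.9 FPKM at 6 h and 3.04, 3.79 and 4.07 FPKM at 24 h. The combination had 0.814, 1.51 and 1.26 FPKM, against 19.3, 24.5 and 27.8 FPKM in DMSO. All treated libraries lay below all DMSO libraries, an order that 78.8% to 94.4% of tested genes had in the single comparisons with DMSO. The combination overlapped only with imatinib for 6 h. Fold differences below DMSO were 15.2 after imatinib for 6 h, 37.4 after imatinib for 24 h, 1.75 after JQ1 for 6 h, 6.58 after JQ1 for 24 h and 20 after the combination. The log2 change after imatinib for 24 h was -3.91 (SE 0.16, adjusted p = 3.72e-15). For JQ1 at 6 h it was -0.75, with 72% of tested genes below it, and it was 0.32 after ratio rescaling; JQ1 for 24 h gave -2.42, and -0.87 after ratio rescaling, which did not pass.

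DUSP7 and DUSP9, a pair of cytoplasmic ERK phosphatases, changed less under imatinib than DUSP6 and DUSP5 did, and DUSP9 had its lowest levels with JQ1 at 24 h. DUSP9 had 6.48, 6.01 and 6.45 FPKM after imatinib for 6 h and 3.79, 4.12 and 3.96 FPKM after imatinib for 24 h. JQ1 left 3.66, 3.12 and 3.6 FPKM at 6 h and 0.72, 0.885 and 0.937 FPKM at 24 h. The combination left 0.335, 0.857 and 0.487 FPKM, against 9.16, 9.68 and 13.5 FPKM in DMSO. The low groups were thus the 2 that had received JQ1 for 24 h, which overlapped with each other and with no other group. Of tested genes, 64.8% were lower without overlap after JQ1 for 24 h than after JQ1 for 6 h. DUSP9 fell by 2.66 log2 after JQ1 for 24 h and by 2.91 after the combination, and by 1.32 and 1.30 after ratio rescaling. After imatinib for 24 h it was at -1.23, but at 0.26 after ratio rescaling and 0.66 after rescaling to 1 total, so the direction depended on the scale. DUSP7 averaged 3.19 ± 0.363 FPKM after imatinib for 6 h, 2.42 ± 0.158 after imatinib for 24 h, 3.52 ± 0.203 after JQ1 for 6 h, 1.99 ± 0.496 after JQ1 for 24 h and 1.15 ± 0.39 after the combination, against 9.32 ± 1.82 in DMSO (SD, n = 3 each). It fell in all 5 comparisons on the deposited scale, by 1.18 to 2.26 log2, and in none after ratio rescaling, where its values lay between -0.56 and -0.14.

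**Figure D2:**
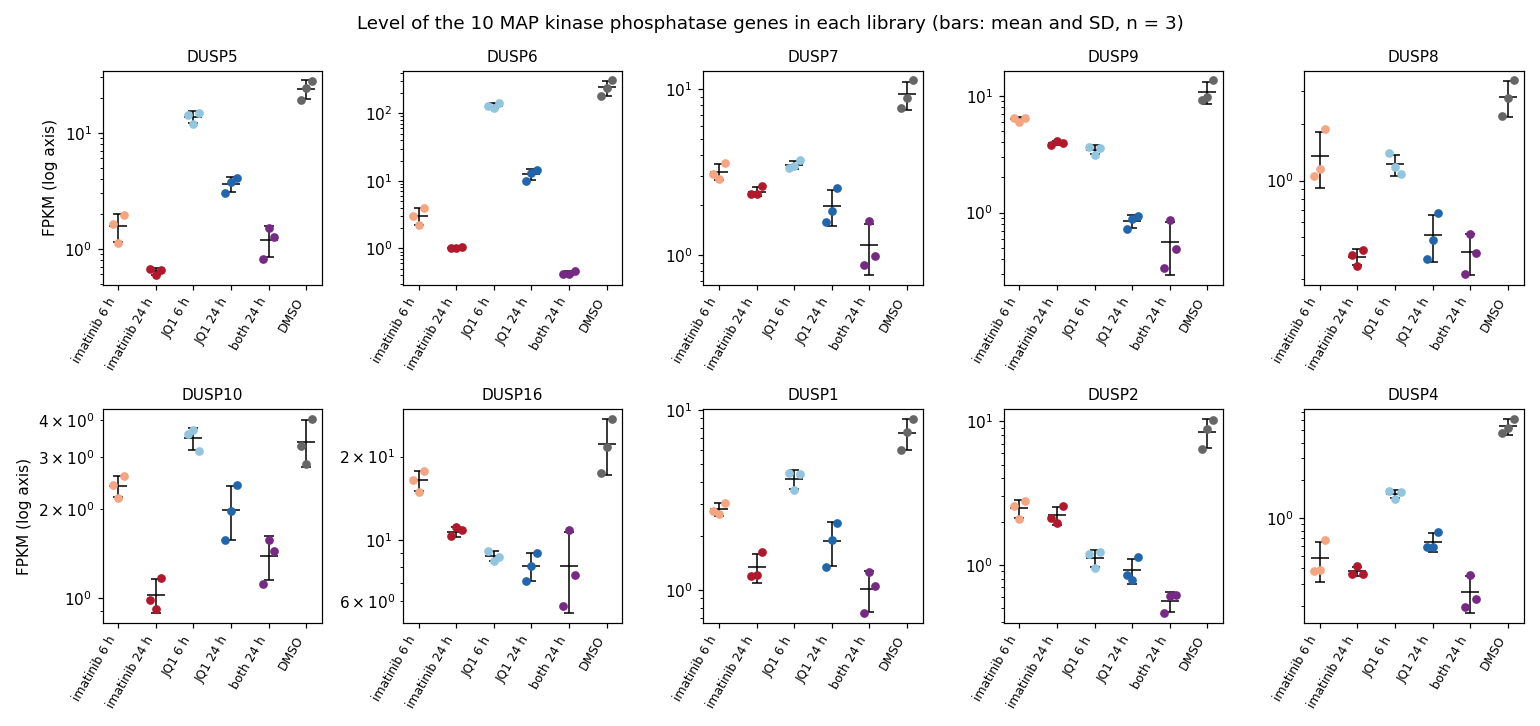
FPKM of each MAP kinase phosphatase in every library on a log axis, with groups from imatinib 6 h to DMSO along the horizontal axis; points are libraries and bars are the mean and SD. DUSP6 spans the range from 0.416 FPKM in the combination to 306 FPKM in DMSO, while DUSP16 stays between 5.78 and 27.4 FPKM.

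Among the inducible nuclear enzymes, DUSP4 was the member that fell under imatinib after ratio rescaling as well. DUSP4 had 0.38, 0.39 and 0.676 FPKM after imatinib for 6 h and 0.358, 0.416 and 0.36 FPKM after imatinib for 24 h. It had 1.64, 1.43 and 1.63 FPKM after JQ1 for 6 h and 0.588, 0.592 and 0.776 FPKM after JQ1 for 24 h. The combination had 0.196, 0.357 and 0.229 FPKM, against 4.72, 5.21 and 6.18 FPKM in DMSO. DMSO lay above every treated library, as it did for 78.8% to 94.4% of tested genes in the single comparisons. Imatinib for 6 h overlapped with both neighbouring groups in the order of levels. DUSP4 fell by 2.10 log2 after imatinib for 6 h and by 2.20 after imatinib for 24 h, and by 1.25 and 1.06 after ratio rescaling. Its fold below DMSO was 11.2 after imatinib for 6 h, and 1.25% of tested genes were below its log2 change there.

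DUSP2, first known as an immediate early gene of lymphocytes, had lower values under JQ1 than under imatinib, without overlap. That order was shared by 58.7% of tested genes at 6 h and 27.6% at 24 h. Neither difference passed the test on the deposited scale with the pseudocount of 1 FPKM. It had 2.57, 2.07 and 2.8 FPKM after imatinib for 6 h and 2.13, 1.94 and 2.57 FPKM after imatinib for 24 h, which overlap. JQ1 left 1.18, 0.944 and 1.22 FPKM at 6 h and 0.841, 0.783 and 1.13 FPKM at 24 h. The combination left 0.458, 0.609 and 0.614 FPKM, below every other library, against 6.38, 8.82 and 10.2 FPKM in DMSO. Of tested genes, 60.6% were lower without overlap in the combination than after JQ1 for 24 h. DUSP2 fell by 2.15 log2 after JQ1 for 6 h, where 2.29% of tested genes were lower, and by 1.13 after ratio rescaling. After imatinib for 24 h it fell by 1.55, near the median gene, and stood at -0.14 after ratio rescaling and 0.22 after rescaling to 1 total. DUSP1, a stress- and growth-factor-induced phosphatase, averaged 2.81 ± 0.225 FPKM after imatinib for 6 h, 1.34 ± 0.242 after imatinib for 24 h, 4.15 ± 0.496 after JQ1 for 6 h, 1.87 ± 0.511 after JQ1 for 24 h and 1.02 ± 0.263 after the combination, against 7.49 ± 1.46 in DMSO (SD, n = 3 each). DUSP1 fell in 4 of the 5 comparisons on the deposited scale, and no ratio-rescaled value passed, the lowest being -0.51 after imatinib for 24 h. At JQ1 6 h DUSP1 was at -0.71, and at 0.24 after ratio rescaling.

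DUSP16, a phosphatase of JNK and p38, was the most abundant of its class in every group. It had 16.4, 14.9 and 17.7 FPKM after imatinib for 6 h and 10.3, 11.1 and 10.9 FPKM after imatinib for 24 h. JQ1 gave 9.13, 8.41 and 8.66 FPKM at 6 h and 7.12, 8.05 and 8.97 FPKM at 24 h. The combination had 5.78, 10.9 and 7.46 FPKM, against 17.4, 21.7 and 27.4 FPKM in DMSO. Imatinib for 6 h overlapped with DMSO, and the 2 JQ1 groups overlapped with each other and with the combination, which also reached the range of imatinib for 24 h. DUSP16 fell on the deposited scale after JQ1 for 6 h, JQ1 for 24 h and the combination, by 1.23, 1.34 and 1.38 log2; after ratio rescaling it was at -0.15, 0.24 and 0.87 there, and at 0.66 after imatinib for 24 h, all short of the threshold. Without DMSO replicate 1, its deposited value after imatinib for 24 h was -1.11, past the threshold, and with all libraries it was -0.96.

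DUSP10 averaged 2.39 ± 0.199 FPKM after imatinib for 6 h, 1.02 ± 0.135 after imatinib for 24 h, 3.47 ± 0.299 after JQ1 for 6 h, 1.98 ± 0.416 after JQ1 for 24 h and 1.38 ± 0.236 after the combination, against 3.38 ± 0.61 in DMSO (SD, n = 3 each). JQ1 for 6 h overlapped with DMSO, and 96.7% of tested genes were below its log2 change there. DUSP10 fell only after imatinib for 24 h, by 1.11 log2, and was at 0.01 after ratio rescaling. DUSP8 averaged 1.36 ± 0.453 FPKM after imatinib for 6 h, 0.392 ± 0.0368 after imatinib for 24 h, 1.22 ± 0.156 after JQ1 for 6 h, 0.512 ± 0.145 after JQ1 for 24 h and 0.415 ± 0.102 after the combination, against 2.79 ± 0.605 in DMSO (SD, n = 3 each). The 3 groups measured at 24 h held its lowest levels. It fell in those 3 by 1.32 to 1.43 log2, and its ratio-rescaled values in all 5 comparisons lay between -0.46 and -0.01.

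A share within a library does not depend on the scale of that library, so the makeup of the family can be read without rescaling. The ERK-directed members took 35.3 ± 0.758% of the summed FPKM of the 10 members after imatinib for 6 h, 33.3 ± 0.519% after imatinib for 24 h, 88.1 ± 0.938% after JQ1 for 6 h, 57.7 ± 1.35% after JQ1 for 24 h and 22.2 ± 0.155% after the combination, against 85.1 ± 0.579% in DMSO (SD, n = 3 each). No treated library overlapped with a DMSO library in this share, and only the libraries of JQ1 for 6 h were above DMSO. The members directed at JNK and p38 took 50.3%, 50.4%, 7.88%, 32% and 65.4% in the same treated groups, against 8.5% in DMSO. DUSP1, DUSP2 and DUSP4 together took 14.4%, 16.3%, 3.98%, 10.4% and 12.4%, against 6.41% in DMSO. DUSP6 alone took 7.55 ± 1.31% after imatinib for 6 h, 4.23 ± 0.124% after imatinib for 24 h, 76.1 ± 1.15% after JQ1 for 6 h, 38.1 ± 1.48% after JQ1 for 24 h and 3.05 ± 0.846% after the combination, against 71.8 ± 1.35% in DMSO. DUSP9 and DUSP7, also ERK-directed, had larger shares with imatinib alone. DUSP9 took 15.9% after imatinib for 6 h and 16.4% after imatinib for 24 h, against 3.24% in DMSO. DUSP7 took 7.98% and 10%, against 2.8% in DMSO. In the combination DUSP9 took 3.59%, with libraries that overlapped with DMSO, and DUSP7 took 7.64%. With DUSP6 left out of both sums, the ERK-directed share was 30% after imatinib for 6 h, 30.4% after imatinib for 24 h, 50.4% after JQ1 for 6 h, 31.6% after JQ1 for 24 h and 19.8% after the combination, against 47% in DMSO. DUSP16 was the most abundant member in every group with imatinib, with 41%, 44.6% and 53.2% of the sum after imatinib for 6 h, imatinib for 24 h and the combination, against 6.64% in DMSO. The members' summed FPKM was 40 ± 4.56, 24.1 ± 1.08, 171 ± 14.2, 33.1 ± 5.7 and 15 ± 4.31 in the treated groups, in the order used for the ERK-directed share, against 335 ± 80.8 in DMSO. FPKM is per length of transcript, which lets genes be set beside one another.

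**Figure D3:**
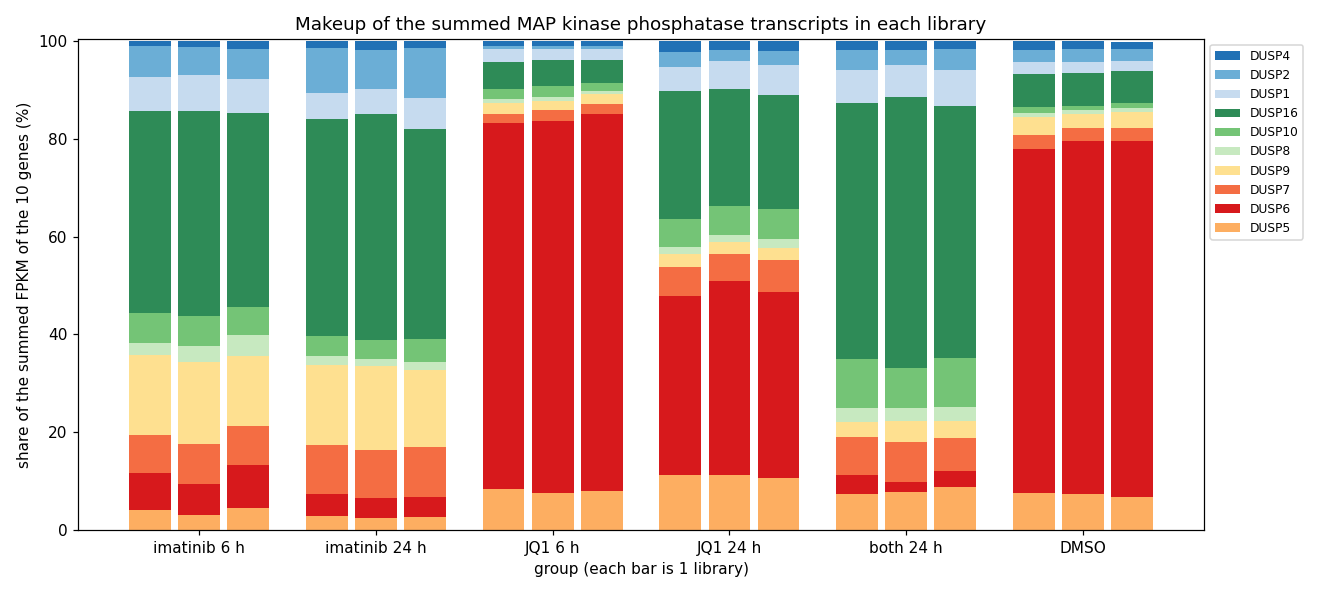
Share of each MAP kinase phosphatase in the summed FPKM of the 10 members, in percent, with 1 stacked bar per library and groups ordered from imatinib 6 h to DMSO. DUSP6 fills 71.8% of the DMSO bars and 76.1% of the JQ1 6 h bars on average, and DUSP16 is the largest segment in the 3 groups with imatinib.

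Set against each other at the same dose and time, JQ1 and imatinib differed most in DUSP6 and DUSP5. JQ1 was higher than imatinib by 5.03 log2 for DUSP6 (SE 0.19, adjusted p = 1.48e-14) and by 2.52 for DUSP5 (SE 0.16, adjusted p = 5.74e-11) at 6 h, where 1.95% of tested genes were higher. At 24 h the differences were 2.74 for DUSP6 and 1.49 for DUSP5, and 3.59% of tested genes were higher. DUSP9 was lower under JQ1 than under imatinib at 24 h, by -1.43 (adjusted p = 4.76e-08), where 4.88% of tested genes were lower. The ratio-rescaled differences at 24 h were 2.88 for DUSP6, 1.63 for DUSP5 and -1.59 for DUSP9, so all 3 calls held. DUSP2 stood at -0.72 at 6 h and -0.74 at 24 h, short of the size threshold, and 19.5% and 9.02% of tested genes were below it. At 24 h DUSP2 was called lower after rescaling to 1 total, where 12.4% of tested genes were lower. It was also called with MIR1244 left out of that total, where 8.8% were. A pseudocount of 0.1 FPKM called it lower at 6 h and at 24 h, where 15% and 9.4% of tested genes were lower.

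**Figure D4:**
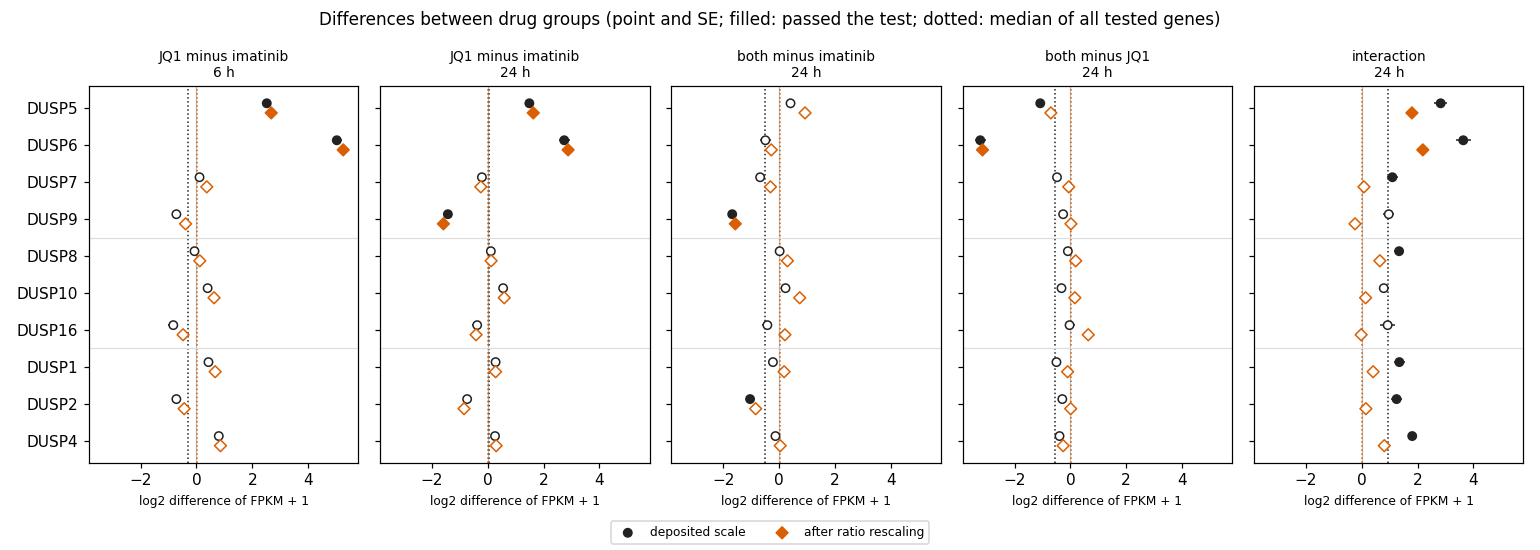
Differences between drug groups as log2 of FPKM + 1: JQ1 minus imatinib at 6 h, JQ1 minus imatinib at 24 h, the combination minus imatinib, the combination minus JQ1, and the interaction; points are limma estimates, bars are SE, filled points passed the test, and dotted lines mark the median of all tested genes. DUSP6 is at 5.03 in the first panel and at -3.23 in the fourth, and DUSP9 is at -1.68 in the third.

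DUSP6, DUSP5 and DUSP9 differed between the 2 times of JQ1. The 1 DMSO group has no stated time, so time under a drug and time in culture cannot be told apart. From 6 h to 24 h of JQ1 the level was lower by 3.28 log2 for DUSP6, 1.67 for DUSP5 and 1.27 for DUSP9. The largest adjusted p of the limma test was 2.7e-07, and 14.2% of tested genes were lower. After ratio rescaling the values were -2.75 for DUSP6, -1.20 for DUSP5 and -0.95 for DUSP9, the last short of the threshold, and rescaling to 1 total left DUSP5 at -0.83. Between imatinib for 24 h and imatinib for 6 h, no member passed, while 33.4% of tested genes were lower. The limma test gave 7 members lower at an unadjusted p below 0.05, the same number passed with the adjusted p alone, against 78.7% of tested genes, and a pseudocount of 0.1 FPKM called 5, against 42.4%. DUSP6 was closest to the threshold, at -0.99, and at -0.37 after ratio rescaling.

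Adding the second drug moved different members. The combination was lower than imatinib alone for DUSP9, by -1.68 (adjusted p = 2.25e-09), and for DUSP2, by -1.04 (adjusted p = 1.88e-06), where 14.5% of tested genes were lower. DUSP9 kept -1.57 after ratio rescaling. DUSP2 moved to -0.84 there, and to -0.96 without imatinib 24 h replicate 3 and -0.99 without combination replicate 1 on the deposited scale, all short of the threshold. DUSP6 had 0.417 to 0.471 FPKM in the combination and 1.0 to 1.05 FPKM with imatinib alone, a difference of -0.49 with the pseudocount of 1 that did not pass, and of -1.07, which did, with a pseudocount of 0.1. DUSP5 was the member with higher levels in all 3 libraries of the combination than in imatinib for 24 h, where 2.72% of tested genes had that order, but its difference of 0.41, or 0.93 after ratio rescaling, did not pass.

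Relative to JQ1 alone at 24 h, the combination was lower for DUSP6, by -3.23 (adjusted p = 8.04e-11), and for DUSP5, by -1.08 (adjusted p = 3.39e-05), where 7.35% of tested genes were lower. DUSP6 was at -3.15 after ratio rescaling, DUSP5 at -0.70, and DUSP5 was at -0.95 without combination replicate 1; only DUSP6 passed in each of these. The interaction measures how far the combination lay from the sum of the single drugs' log2 changes, and a positive value means that it was lowered by less than that sum. It was called for DUSP1, DUSP2, DUSP4, DUSP5, DUSP6, DUSP7 and DUSP8, all positive, where 46.8% of tested genes were higher. After ratio rescaling it was called for DUSP5, at 1.80, and DUSP6, at 2.19, where 4.88% of tested genes were higher. The added 1 FPKM keeps log2 values from falling below a floor. On the deposited scale the single-drug changes of DUSP6, DUSP5 and DUSP4 summed past that floor by more than the threshold. A positive call was thus fixed in advance for them and cannot show how the drugs combine. For DUSP8, DUSP2 and DUSP1 the positive sign was fixed. DUSP6 met the same limit after ratio rescaling. In the combination DUSP6 lay under the pseudocount of 1 FPKM and DUSP5 between 0.814 and 1.51 FPKM. With a pseudocount of 0.1 on the deposited scale the interaction was 3.45 for DUSP5 and 3.16 for DUSP6. The call for DUSP7 was lost without DMSO replicate 3, at 0.97, and without combination replicate 2, at 0.96.

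Other genes around the pathway were taken from lists of known components. Of 15 transcripts regarded as ERK output, 13 were tested. On the deposited scale 11 fell after imatinib for 6 h, 9 after JQ1 for 6 h, 12 after imatinib for 24 h, 12 after JQ1 for 24 h and 13 after the combination, where 20%, 49.8%, 72.1%, 75.3% and 86% of all tested genes fell. FOSL1 passed the filter only through DMSO and could only fall; without it 10, 9, 11, 11 and 12 of 12 fell. After ratio rescaling 7 fell after imatinib for 6 h, against 2.08% of tested genes, and 6 fell after imatinib for 24 h, JQ1 for 24 h and the combination, against 8.72%, 6.47% and 10.1%. Rescaling to 1 total gave 2 rises after imatinib for 24 h, where 20% of tested genes rose. SPRY4, an inhibitor of receptor tyrosine kinase signalling, was at -5.13 after imatinib for 6 h, -1.99 after JQ1 for 6 h, -5.97 after imatinib for 24 h, -4.15 after JQ1 for 24 h and -7.34 after the combination. ETV5, an ETS transcription factor, was at -4.08, -0.53, -7.30, -3.04 and -5.75 in the same order. ETV4, a close relative of ETV5, was at -2.10, -1.94, -5.99, -4.70 and -5.91, and SPRY2, a paralog of SPRY4, at -3.76, -1.22, -4.75, -3.60 and -6.08. CCND1, which encodes cyclin D1, was at -2.37, -1.60, -2.46, -3.81 and -4.87. EGR1, an immediate early transcription factor, was at -4.17 after imatinib for 6 h and -0.04 after JQ1 for 6 h, and EGR1 rose by 1.04 there after ratio rescaling. EGR1 was at 0.73 after rescaling to 1 total, short of the threshold. After JQ1 for 6 h on the deposited scale, where DUSP6 and DUSP5 did not pass, neither did ETV5 or EGR1, while SPRY4 and SPRY2 fell. SPRY2, at -1.22, was close to the median gene at -1. After ratio rescaling, 0 of the 12 genes tested without FOSL1 fell there, and 1 rose.

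The substrates had median changes close to those of all genes, with -1.42 after imatinib for 24 h, against -1.5 for all tested genes, and -2.03 after the combination, against -2.05. Of 9 MAP kinases 8 were tested, and 1, 2, 6, 7 and 8 fell after imatinib for 6 h, JQ1 for 6 h, imatinib for 24 h, JQ1 for 24 h and the combination, on the deposited scale where 20%, 49.8%, 72.1%, 75.3% and 86% of tested genes fell. After ratio rescaling MAPK3, which encodes ERK1, fell after the combination, at -1.22, and MAPK10, which encodes JNK3, rose after imatinib for 24 h, at 1.37; both calls held after rescaling to 1 total. Of the 6 MAP kinase kinases, 2, 5, 4 and 6 fell on the deposited scale after JQ1 for 6 h, imatinib for 24 h, JQ1 for 24 h and the combination, with those same shares of all genes from 49.8% to 86%. After ratio rescaling the 1 gene called was MAP2K3, which phosphorylates p38 and rose by 1.35 after JQ1 for 6 h and by 1.09 after the combination. Of 16 atypical DUSPs, most of which lack the kinase-binding domain of this family, 11 were tested, and DUSP12 was at -1.10 after imatinib for 24 h and -1.03 after the combination on the ratio-rescaled scale, while DUSP14 rose by 1.06 after JQ1 for 6 h; after rescaling to 1 total neither passed. PTPRR, PTPN5 and PTPN7, tyrosine phosphatases of MAP kinases, had DMSO means of 0.113, 0.128 and 0.122 FPKM, near the lowest value in those libraries, and were not tested.

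The genes whose pattern was most like each member were found by Pearson r of ratio-rescaled log2 values over the 18 libraries, among 10504 or 10505 genes whose mean reached 5 FPKM in some group. The 18 points share their groups and scale, so r is a description. For DUSP6 they were CLDN1 (r = 0.995), IBA57 (r = 0.992) and SPRY2 (r = 0.988), with r of 0.979, 0.984 and 0.972 on the deposited scale. SPRY2 is an inhibitor of receptor tyrosine kinase signalling and was the one gene of the ERK output list among them. For DUSP5 they were PPP1R13B (r = 0.988), RASL11A (r = 0.987) and IER2 (r = 0.983). For DUSP9 they were RGL1 (r = 0.995), ADAMTSL3 (r = 0.987) and APOL1 (r = 0.986), and for DUSP4 PER2 (r = 0.981), CHSY1 (r = 0.979) and MAT2A (r = 0.978). DUSP16 was closest to IARS2 (r = 0.985), DUSP2 to TMEM168 (r = 0.976), DUSP10 to FGD6 (r = 0.963) and DUSP1 to PLK3 and DNAJB1 (r = 0.944 each). DUSP7, with SOBP (r = 0.921), and DUSP8, with LIMK2 (r = 0.893), had the lowest values of the 10. No member had another member among its 3 closest genes.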

How the data were processed

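Poly(A) RNA of GIST-T1 cells was measured in 18 libraries, 3 in each of 6 groups. Per the labels' protocols, RNA was normalized to cell count before ERCC spike-ins were added, and the stranded libraries gave single-end reads of 75 bases. The aligner STAR and the assembler Cufflinks, with hg19, are named in the submitters' processing notes, with no versions. The authors deposited 1 table of FPKM values described as normalized; the sources used here do not say how. It held 23621 genes and 92 spike-ins, and the number of columns with no sample was 0. 1 JQ1 24 h column matched no numbered title and counts as a library of that group with no number. Read depth was not known, and precision was judged from the libraries of a group.

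The filter was 1 FPKM or more in 3 or more libraries, which 12771 genes passed. limma (version 3.58.1, R 4.3.3) was run on log2(FPKM + 1) of the deposited values, with 1 mean per group, an intensity trend and 12 residual degrees of freedom. All tests were two-sided, with Benjamini-Hochberg adjustment within each of 12 comparisons. Calls needed an adjusted p below 0.05 and a log2 change of 1 or more in size. Because of the added 1, a low gene's log2 change understates the ratio of its values. The scripts were tested on simulated data. Alternatives were a pseudocount of 0.1 FPKM, no filter, a filter on a mean of 5 FPKM, rescaling by median ratio, rescaling to 1 total (also leaving out MIR1244), a fit with a replicate block, the compared groups only, the adjusted p alone, and leaving out each library. Rescaled fits used the filter of the deposited values.

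The members and lists were chosen with earlier results of these data known. Named genes were all 10 members, up to 4 called genes of largest log2 change from each list in each comparison with DMSO, MAP kinases and tyrosine phosphatases by level, and the 3 genes most like each member by Pearson r of ratio-rescaled log2 values, among genes whose mean reached 5 FPKM in some group. Genes of the lists called only after rescaling (MAPK10, MAP2K3, DUSP14) were named after their values were seen. Promoter windows are from RefSeq on GRCh38.p14, and matches were counted on both strands.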

Additional observations from a re-analysis of the deposited data

Results flagged for a closer look

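The level differed between JQ1 for 24 h and JQ1 for 6 h for 3 members, by a test of that difference. The 1 DMSO group has no stated time, so time under JQ1 and time in culture cannot be told apart. The log2 difference was -3.28 for DUSP6, -1.67 for DUSP5 and -1.27 for DUSP9. On the deposited scale 14.2% of tested genes were lower in this comparison. Leaving out each library in turn kept these 3 calls, and rescaling did not: DUSP9 was at -0.95 with ratio rescaling, -0.70 with rescaling to 1 total and -0.89 with MIR1244 left out of that total, and DUSP5 was at -0.83 with rescaling to 1 total, all short of the threshold.

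The change with both drugs differed from the sum of the single-drug changes at 24 h for 7 members, by the interaction term. It was 3.64 for DUSP6, 2.83 for DUSP5, 1.81 for DUSP4, 1.35 for DUSP1, 1.34 for DUSP8, 1.25 for DUSP2 and 1.1 for DUSP7. On the deposited scale 46.8% of tested genes had a called positive interaction, so the 7 of 10 members stand close to a general pattern. The RNA level fell in most genes in each single-drug group, and the part of that fall in these values was not tested. With a pseudocount of 0.1 FPKM the values were 3.16 for DUSP6, 3.45 for DUSP5, 2.43 for DUSP4, 1.58 for DUSP1, 2.3 for DUSP8, 1.26 for DUSP2 and 1.13 for DUSP7. After ratio rescaling DUSP6 and DUSP5 passed, at 2.19 and 1.80. For DUSP6, DUSP5 and DUSP4 on the deposited scale, and for DUSP6 after ratio rescaling, the pseudocount of 1 FPKM fixed a positive call in advance. Their single-drug changes alone summed past the lowest value that it allows, so these calls cannot show how the drugs combine.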

How the results depend on the processing

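On the deposited scale the number of members called was 6 for imatinib 6 h, 5 for JQ1 6 h, 9 for imatinib 24 h, 9 for JQ1 24 h and 9 for the combination against DMSO. In the same order it was 3, 1, 3, 2 and 4 with ratio rescaling, 3, 1, 3, 2 and 5 with rescaling to 1 total, and 3, 1, 3, 3 and 5 when MIR1244 was left out of that total. With a mean of at least 5 FPKM, which left fewer members to test, it was 2, 1, 2, 3 and 3. The adjusted p alone gave 10 for imatinib 6 h and 9 for JQ1 6 h, where 80.5% and 91.5% of tested genes were lower. Of all tested genes, 3.3%, 5.03%, 17.5%, 11.7% and 19.3% were called in either direction with ratio rescaling. With rescaling to 1 total it was 3.44%, 7.83%, 24%, 12.8% and 21%. Without MIR1244 in that total it was 3.56%, 7.12%, 18.8%, 12.7% and 20.9%.

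Between drug groups, shares in brackets are those of all tested genes called in either direction. The combination against imatinib had 2 calls (15%), and 4 with a pseudocount of 0.1 FPKM (27.1%). It had 0 with a mean of at least 5 FPKM, 1 with ratio rescaling (7.96%) and 5 with the adjusted p alone (64.2%). The combination against JQ1 had 2 (7.4%), and 1 with each of the 3 rescalings (1.04% to 1.13%). The adjusted p alone gave it 6 (73.7%). JQ1 against imatinib had 2 at 6 h (11.3%), with 4 at a pseudocount of 0.1 FPKM (17.7%) and 8 by adjusted p alone (47.4%). At 24 h it had 3 (8.47%), with 5 by the adjusted p alone (37.1%). There it had 4, with DUSP2 added, at a pseudocount of 0.1 FPKM (15.1%). Rescaling to 1 total gave the same 4, with (14.3%) or without MIR1244 (11.3%). Imatinib 24 h against 6 h had 0 (33.9%), with 5 at a pseudocount of 0.1 FPKM (43.7%) and 7 by adjusted p alone (82.3%). JQ1 24 h against 6 h had 3 (14.7%), with 6 at a pseudocount of 0.1 FPKM (21.3%). It had 1 with rescaling to 1 total (10.4%) and 8 by the adjusted p alone (60.4%). The interaction had 7 (47.7%), and 2 with each rescaling (10.7% to 17.2%) and with a mean of at least 5 FPKM.

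Signs turned in these cases, given as ratio rescaling, then rescaling to 1 total, then that without MIR1244, where each turned. For imatinib 6 h DUSP9 was at 0.02 and 0.02, DUSP10 at 0.17, 0.18 and 0.16, and DUSP16 at 0.33, 0.32 and 0.30. For JQ1 6 h DUSP5 was at 0.32, 0.02 and 0.09, DUSP6 at 0.28 and, without MIR1244, 0.03, and DUSP1 at 0.24 and, without MIR1244, 0.04. For imatinib 24 h DUSP9 was at 0.26, 0.66 and 0.34, DUSP10 at 0.01, 0.31 and 0.06, and DUSP16 at 0.66, 1.10 and 0.74; DUSP7 and DUSP2 were each at 0.22 with rescaling to 1 total. For JQ1 24 h DUSP10 was at 0.60, 0.71 and 0.56 and DUSP16 at 0.24, 0.33 and 0.14. For the combination DUSP10 was at 0.76, 0.89 and 0.69 and DUSP16 at 0.87, 1.01 and 0.75. The interaction of DUSP7 was at -0.26 and that of DUSP2 at -0.19 with rescaling to 1 total. DUSP10 after JQ1 6 h was at -0.05 without DMSO replicate 2. The part of the general fall in RNA in these turns was not tested.

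Leaving out each library in turn gave 6 to 6 calls for imatinib 6 h, 5 to 6 for JQ1 6 h, 9 to 10 for imatinib 24 h, 9 to 9 for JQ1 24 h and for the combination, 1 to 2 for the combination against each drug, 2 to 2 for JQ1 against imatinib at 6 h and 3 to 3 at 24 h, 0 to 1 for imatinib 24 h against 6 h, 3 to 3 for JQ1 24 h against 6 h, and 6 to 9 for the interaction. The ERK-directed share lay between 35.0 and 35.7% for imatinib 6 h, 33.2 and 33.6% for imatinib 24 h, 87.6 and 88.5% for JQ1 6 h, 57.0 and 58.3% for JQ1 24 h, 22.2 and 22.3% for the combination, and 84.8 and 85.4% for DMSO. With DUSP2 and DUSP4 counted as ERK-directed it was 42.6%, 44%, 89.7%, 62.4% and 27.8% in the treated groups in that order, and 89.2% in DMSO. With DUSP6 left out of both sums, an alternative chosen after seeing the data, it was 30%, 30.4%, 50.4%, 31.6% and 19.8%, and 47% in DMSO.

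Same-numbered libraries had correlations of their deviations between -0.238 and 0.193 over 40 pairs, and 4 were over 0.1, so the numbers were not taken as pairs. With a replicate block the members called were 6 for imatinib 6 h, 5 for JQ1 6 h, 9 for each of the other 3 groups against DMSO and 7 for the interaction, and it changed no call. The low levels of several members, under 1 FPKM, limit the log2 changes through the pseudocount, and the depth behind them is unknown.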
